A study of Caenorhabditis elegans with 2 samples.

Results

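The hedgehog-related genes of Caenorhabditis elegans were taken by symbol, as the protein-coding genes named wrt, grd, grl, qua or hog with a number in the WBcel235 annotation (build ce11). The rule found 59 of 19985 protein-coding genes, made up of 10 wrt, 16 grd, 31 grl, 1 qua and 1 hog gene. BLMP-1, a zinc finger transcription factor and the homologue of vertebrate PRDM1, carried an eGFP tag for ChIP-seq in strain OP109 (unc-119(ed3) III; wgIs109), which carries an integrated insertion of tagged blmp-1 in an unc-119 mutant background. Both samples were biological replicates of whole mixed-stage embryos of pooled male and female sex, so there was 1 group of 2 samples and no second condition, and cell types cannot be told apart. A control experiment that the labels list was not analysed here. Each library had a fragment size range of 150 to 350 bp. The deposited lists used here were 843 peaks that passed IDR (irreproducible discovery rate, which scores how well regions repeat between replicates), and 30000 candidate regions each for the pooled reads, replicate 1 and replicate 2. The pooled candidate list is labelled as peaks and background, so a candidate alone is not read as BLMP-1 binding. Its −log10 q value was 0.859 at a wrt-9 region of rank 4027 and 0.0923 at a grl-7 region of rank 29480. Shares and median ranks of candidates thus include many weakly scored regions.

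Worms lack a close Hedgehog orthologue and a Smoothened receptor, but have a large set of proteins related to Hedgehog. The warthog (wrt), groundhog (grd) and quahog (qua) proteins carry an amino-terminal Wart, Ground or Qua domain, and many of them also carry the Hog domain, the self-cleaving part of Hedgehog. The ground-like (grl) proteins have a Ground-like domain without Hog. They are secreted proteins, many of them made in epidermal cells that also make the cuticle, and qua-1 is required for molting. Patched and patched-related membrane proteins are the counterpart on the receiving side.

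A locus is the gene body plus the 2000 bp upstream of its start. A region was counted for each gene whose locus held its summit, and its rank is its place by the authors' signal value in its own list, with rank 1 the strongest. The scale of the signal value is not stated, so signal is read within a list only. With a single group there is no contrast to test: counts are given beside the same counts over all protein-coding genes, and genes are not replicates. The depth of each library is unknown, because the lists hold no read counts. The 843 IDR peaks had signal values from 46.1 to 1013.5 with a median of 65.5, and 25 of them lay on the mitochondrial genome.

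The family's strongest BLMP-1 regions were at qua-1, wrt-9, wrt-2 and grl-15, and sequences at the first 3 are shown for the words they hold. The search was for AAGTGAAA, a core word of the sites that PRDM1 and BLMP-1 bind, on both strands (TTTCACTT on the other), and the repeat GAGAGA on both strands. The stretches reach 50 bp to each side of the summit, widened where needed to take in each core of the region, and the core-bearing regions of hog-1 and grl-13, which ranked 3000 or better outside the IDR list, are shown beside them. Each runs 5′ to 3′ on the strand of its gene, from the RefSeq WBcel235 genome. Capitals mark the core or GAGAGA.
qua-1, chrII:8199951-8200051, plus strand, intron with the ends of the coding exons on both sides of it: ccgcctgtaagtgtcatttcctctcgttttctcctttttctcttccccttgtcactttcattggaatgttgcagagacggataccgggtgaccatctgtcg
wrt-9, chrX:1578866-1578966, plus strand, intron: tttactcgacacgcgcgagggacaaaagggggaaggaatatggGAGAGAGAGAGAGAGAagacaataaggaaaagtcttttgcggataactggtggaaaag
wrt-2, chrX:3094443-3094630, minus strand, upstream: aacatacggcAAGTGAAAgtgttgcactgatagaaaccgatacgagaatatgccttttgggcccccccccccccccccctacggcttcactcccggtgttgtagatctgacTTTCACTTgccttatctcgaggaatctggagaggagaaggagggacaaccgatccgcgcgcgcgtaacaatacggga
hog-1, chrX:5854449-5854672, minus strand, upstream: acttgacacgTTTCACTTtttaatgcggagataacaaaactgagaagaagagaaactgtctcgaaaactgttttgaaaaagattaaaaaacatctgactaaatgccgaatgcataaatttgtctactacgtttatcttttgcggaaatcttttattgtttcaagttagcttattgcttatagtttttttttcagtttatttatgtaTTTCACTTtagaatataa
grl-13, chrV:4364663-4364832, minus strand, upstream: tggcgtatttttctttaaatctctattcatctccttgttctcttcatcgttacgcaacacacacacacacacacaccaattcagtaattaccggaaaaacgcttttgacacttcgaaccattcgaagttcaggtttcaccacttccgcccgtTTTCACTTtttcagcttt

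An IDR summit lay in the locus of 4 of the 59 genes, 6.78%, beside 4.24% of all protein-coding genes. At the share of all genes the count would be 2.50, so the difference amounts to between 1 and 2 genes and is not read as a property of the family. A pooled candidate lay in 38 of the 59 loci, 64.4%, beside 65.6% of all genes, so the family as a whole stood at the genomic share. The best pooled candidate ranked 3000 or better at 11 of the 59 genes, 18.6%, beside 13.3% of all genes. Over the genes with a candidate, the median best rank was 11992 in the family and 9091 over all genes, which places the typical family gene lower in the pooled list than the typical gene. That order turned round with 5000 bp upstream (6151 in the family, 7366.5 over all genes), in replicate 1 (8272.5 and 9230) and in replicate 2 (6800 and 9469), so no direction is read from it. The family loci were a little shorter, with a median of 3784 bp against 4026 bp, and their part in these shares was not tested. Per kb of locus there were 0.332 pooled summits in the family and 0.295 over all genes.

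**Figure D1:**
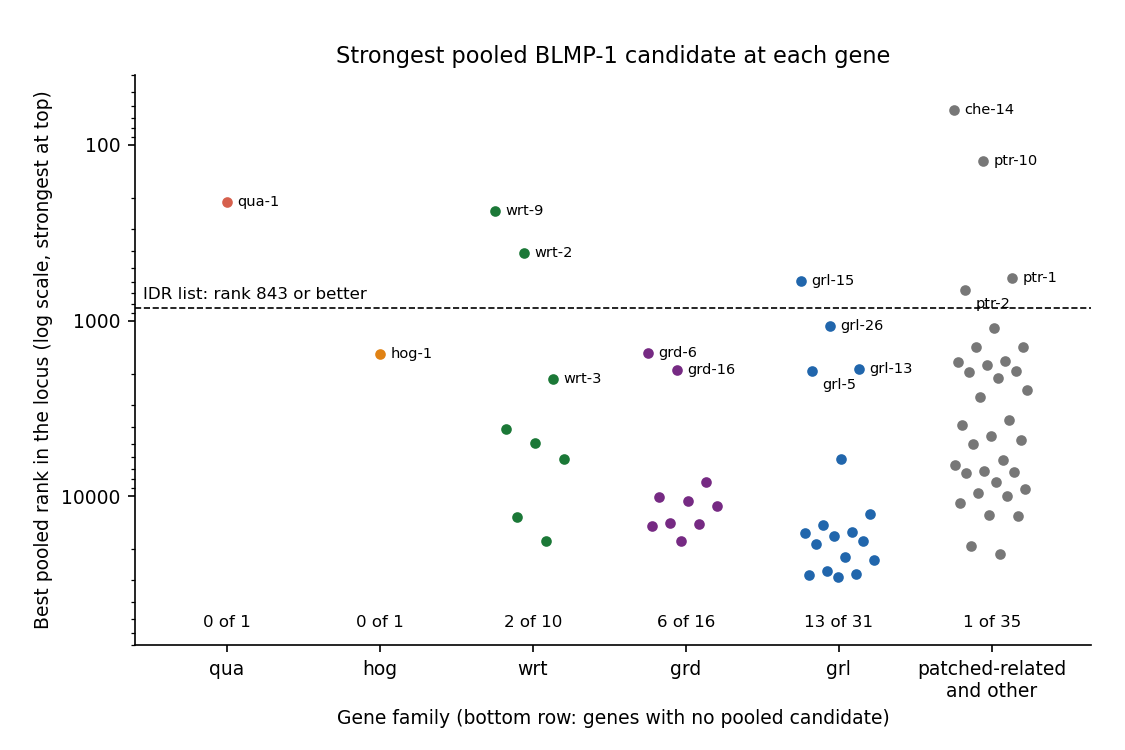
Best pooled rank in the locus of each gene on a log scale, strongest at the top, by family, with the patched-related and other pathway genes at the right; each point is 1 gene and the bottom row counts genes with no pooled candidate. Points for qua-1, wrt-9, wrt-2 and grl-15 lie above the dashed line at rank 843, and most grd and grl points lie below rank 10000.

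**Figure D2:**
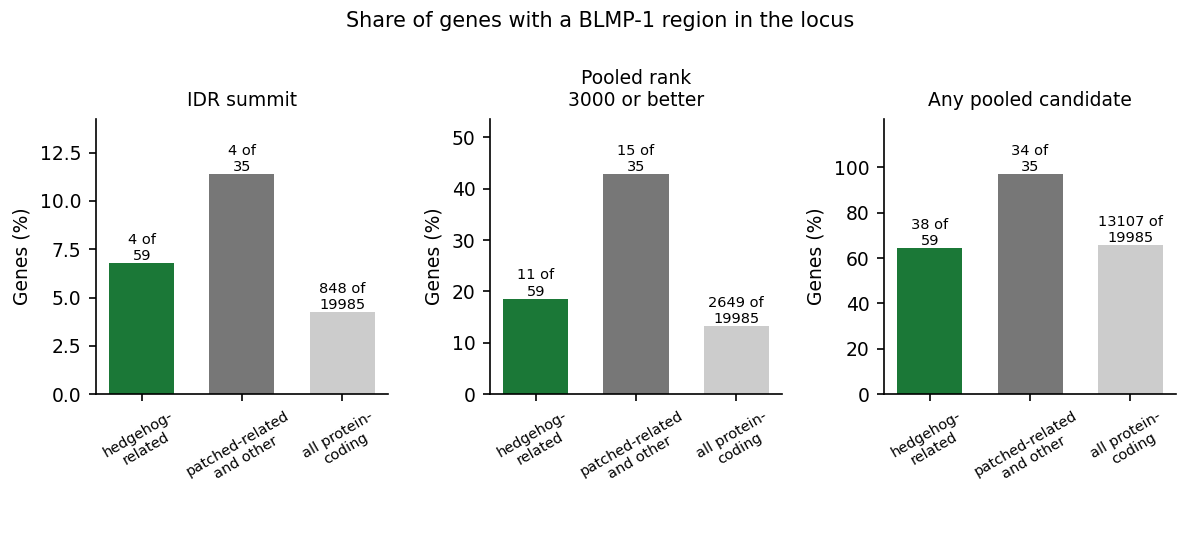
Percent of genes whose locus holds an IDR summit, a pooled candidate at rank 3000 or better, or any pooled candidate, for the hedgehog-related genes, the pathway genes and all protein-coding genes, with counts above the bars. The hedgehog-related genes stand at 6.78%, 18.6% and 64.4%, beside 4.24%, 13.3% and 65.6% of all protein-coding genes.

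qua-1, the sole gene of its class and one required for molting, had the family's strongest region. Its peak at chrII:8199843-8200158 had a signal value of 89.0 and rank 212 in the pooled list. The summit at II 8200001 lay in an intron, 1198 bp downstream of the start, and qua-1 also had the nearest gene start. In replicate 1 the region had signal 62.5 and rank 188, and in replicate 2 it had signal 27.7 and rank 441. The summits of the lists coincided within 7 bp, so both replicates placed it at the same point. Neither the core nor GAGAGA lay within 50 bp of the summit.

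Among the warthog genes, wrt-9 and wrt-2 had IDR peaks, both on the X chromosome. The peak of wrt-9 at chrX:1578758-1579073 had signal 85.4 and rank 238. Its summit lay in an intron, 2279 bp downstream of the start, inside a run of 6 overlapping copies of GAGAGA on the plus strand. The region had signal 53.7 and rank 254 in replicate 1, and signal 29.5 and rank 379 in replicate 2, with summits 5 and 6 bp from the pooled one. At 16684 bp the wrt-9 locus was the longest of the family and held 11 pooled summits. The next of these after the peak ranked 4027, so the other 10 regions of this locus all stood well outside the IDR list.

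The peak of wrt-2 was the only IDR peak of the family upstream of a gene start and the only one with the core. It lay at chrX:3094335-3094650 with signal 66.4 and rank 412, and its summit stood 144 bp upstream of the start. The region held 2 cores, 166 and 267 bp upstream, which lie in opposite directions in the sequence above. A further core stood 1544 bp upstream, outside any candidate region. In replicate 2 the region had signal 31.1 and rank 331, with its summit 134 bp upstream. In replicate 1 it had signal 36.2 and rank 567, with its summit 271 bp upstream, inside the distal core. The replicate summits were thus nearest to different cores, though the region of each replicate held both. From the distal core the distance was 0 bp in replicate 1 and 130 bp in replicate 2, whose summit was 29 bp from the proximal core. A second pooled region, at rank 4731 with its summit 345 bp upstream, also held the distal core.

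Of the ground-like genes, grl-15 alone had an IDR peak. It lay at chrIII:12235682-12235997 with signal 54.8 and rank 592. The summit stood 174 bp downstream of the start, in the untranslated part of the annotated first exon, and also fell in the locus of fbxa-89. GAGAGA lay within 50 bp of it. Replicate 1 gave signal 45.7 and rank 360, while replicate 2 gave signal 14.3 and rank 2816, so the gene stood high in replicate 1 alone. Cores stood 34 and 204 bp upstream of the start, and no candidate region of any list held either of them whole. A weak replicate 2 candidate, at rank 23322, overlapped a part of the distal core.

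**Figure D3:**
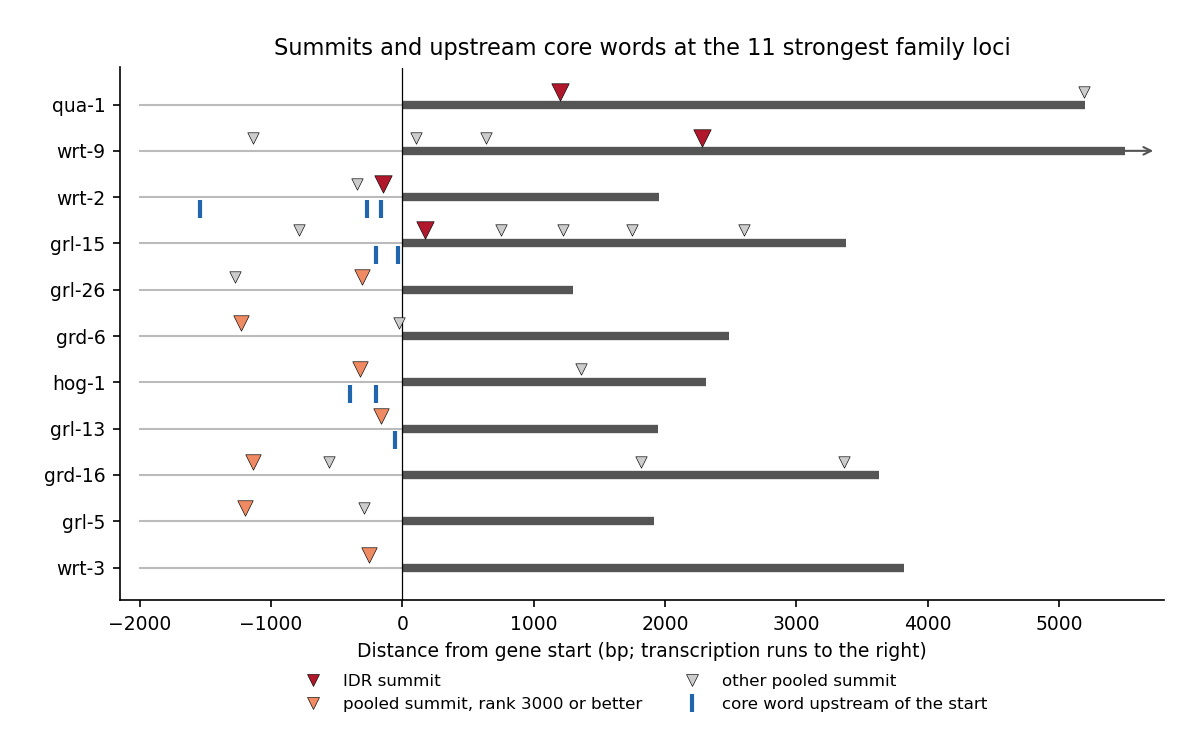
Positions of pooled summits (triangles) and upstream cores (ticks) at the 11 family genes with a pooled rank of 3000 or better, in bp from the gene start. Gene bodies are thick bars. An arrow marks the body of wrt-9, which goes on to the right with further pooled summits that were not drawn. Cores inside gene bodies were not drawn. IDR summits lie in the body at qua-1, wrt-9 and grl-15 and upstream at wrt-2, while the strongest summits of the other genes lie upstream.

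Just outside the IDR list, 7 further genes had a pooled region at rank 3000 or better, all upstream of the start. The weakest family gene inside the list was grl-15 at signal 54.8, and the strongest outside it was grl-26 at 41.1 and rank 1065. The grl-26 region lay 305 bp upstream of its start and also in the locus of drl-1. It ranked 6958 in replicate 1 and 5190 in replicate 2, well below its pooled rank. The groundhog gene grd-6 followed at rank 1522 with a summit 1231 bp upstream, at rank 2178 in replicate 1 and 21701 in replicate 2.

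hog-1, which encodes a Hog domain protein, ranked 1549 with signal 34.9, and its summit stood 319 bp upstream. Its region held 2 cores, 199 and 395 bp upstream, at both ends of the stretch printed above. Replicate 2 ranked it 571 with signal 24.99, inside its 843 strongest regions, and replicate 1 ranked it 2733 with signal 19.8. The replicate 1 summit lay 9 bp from the distal core, and the replicate 2 summit 80 bp from it. The replicate 2 region held both cores, while the replicate 1 region held the distal core alone.

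The remaining 4 genes lay between ranks 1892 and 2133. grl-13, at rank 1892, had its summit 165 bp upstream and a core 59 bp upstream. It ranked 8620 in replicate 1, and no candidate of replicate 2 overlapped the region. grd-16, at rank 1898, ranked 8811 in replicate 1 and 859 in replicate 2, just past the 843 strongest regions. grl-5, at rank 1927, ranked 3066 in replicate 1 and 17202 in replicate 2, and its upstream summit was nearer to the start of Y47D7A.18, at 947 bp. wrt-3, at rank 2133, ranked 12453 in replicate 1, had no overlapping candidate in replicate 2, and shared its summit with the locus of cng-3. None of these 4 stood among the 843 strongest regions of a replicate.

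Set against each other, the warthog genes stood highest, as a description of 10 wrt, 16 grd and 31 grl genes, and the order of grd and grl depended on the measure. A pooled candidate lay in the locus of 8 of 10 wrt genes (80%), 10 of 16 grd genes (62.5%) and 18 of 31 grl genes (58.1%), beside 65.6% of all genes, so grd and grl stood near the genomic share. A replicate 1 candidate lay in 90%, 62.5% and 74.2% of wrt, grd and grl loci, beside 66.3% of all genes. A replicate 2 candidate lay in 90%, 50% and 71% of them, beside 71% of all genes, so grd was the lowest class by both of these shares. In 25% of grd loci, 9.68% of grl loci and no wrt locus, none of the lists held a candidate, beside 13% of all genes. The median best pooled rank was 4536 for wrt, 10946 for grd and 16391.5 for grl, beside 9091 over all genes. The classes also differed in locus length, with medians of 4640 bp for wrt, 3771 bp for grd and 3301 bp for grl, and its part in the ranks was not tested. An IDR summit lay in 2 of 10 wrt loci, 0 of 16 grd loci and 1 of 31 grl loci (3.23%), beside 4.24% of all genes, and nothing is read from the 0 of grd at that share. The lowest best ranks of their classes were those of wrt-1 at 17907, grd-12 at 17929 and grl-14 at 28560, of which that of grl-14 is near the bottom of the 30000 candidates.

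No pooled candidate lay in 21 of the 59 loci, 35.6%, beside 34.4% of all genes. In 7 loci no list held a candidate, 11.9%, beside 13% of all genes. These included grd-3 and grd-10, which are neighbours on IV, grd-4 and grd-14, which are neighbours on X, and grl-23. The ground-like gene grl-23 had cores 94 and 433 bp upstream of its start, so a pair of cores was present there without a region in any list.

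Genes of the family that are neighbours had fewer pooled candidates than the others, a grouping chosen after its values were seen. With at most 10000 bp between bodies, 15 of the 59 genes fell into 6 runs, including grl-28 to grl-31 on V and grd-13, grd-3 and grd-10 on IV. A pooled candidate lay in 4 of these 15 loci, 26.7%, against 34 of the 44 others, 77.3%, beside 65.6% of all genes. The gap was smaller in the replicates. A replicate 1 candidate lay in 9 of the 15, 60%, against 79.5% of the others and beside 66.3% of all genes, and a replicate 2 candidate in 7 of the 15, 46.7%, against 77.3% and beside 71%. Neighbouring loci overlap and are not independent, and those in runs were shorter, with a median of 3067 bp against 3952.5 bp; the part of length in the difference was not tested. An IDR summit lay in none of the 15 loci and in 4 of the 44 others, beside 4.24% of all genes, and nothing is read from a count of 0 in 15 loci at that share.

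The family was concentrated on V, where 28 of the 59 genes lie, beside 4994 of all 19985 genes. None of the 28 had an IDR summit. Over all genes on V the share was 2.56%, the lowest of the nuclear chromosomes, and nothing is read from a count of 0 at that share. Among the 31 family genes elsewhere, 4 had one, 12.9%, beside 4.80% of all genes off V. On the X chromosome these were wrt-2 and wrt-9, of 10 family genes, beside 4.98% of all genes there. With counts this small, no difference between V and the other chromosomes is read. A pooled candidate lay in 64.3% of the family's loci on V and 56.8% of all loci there, in a list that includes background. The median best pooled rank on V was 15372.5 in the family and 11048 over all genes. It was 15193 and 10528 in replicate 1, but 9119 and 11226.5 in replicate 2, so no direction is read.

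Both replicates held the same 3 genes among their 843 strongest regions: qua-1, wrt-9 and wrt-2. These are 5.08% of the family, beside 2.28% of all genes, where the genomic share would give 1.34 genes. With regions ranked by q value, and equal q values ordered by signal, the count was 2, as the wrt-2 region then ranked 1356 in replicate 1. The replicate 2 regions of these 3 genes shared the same −log10 q value, 3.46, so their order there was that of signal. In replicate 1 alone the list had 5 family genes, 8.47% beside 4.04% of all genes, with wrt-1 and grl-15 added. In replicate 2 alone it had 4, 6.78% beside 4.21%, with hog-1 added. The replicates therefore differed over grl-15, wrt-1 and hog-1.

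wrt-1 stood high in replicate 1 alone. Its region there had signal 39.0 and rank 488, with a summit 86 bp downstream of the start in an untranslated exon. No candidate of replicate 2 and none of the pooled list overlapped it. Its neighbour wrt-10, which lies beside it on the other strand, had a pooled summit 14 bp upstream of its start at rank 6151, ranked 16351 in replicate 1 and 2357 in replicate 2. In grl-19 the order was the other way: replicate 2 held a region at rank 1505, 170 bp upstream, that overlapped no candidate of replicate 1.

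Over the whole family, 44 loci held a candidate of replicate 1, 74.6% beside 66.3% of all genes. For replicate 2 the count was 41, 69.5% beside 71%. Neither replicate had a candidate in 8 of the 59 loci, beside 2965 of the 19985 over all genes. In 18 of the 59 loci, 30.5%, a candidate of each replicate overlapped the other, beside 29.3% of all loci. Of the 96 replicate 1 candidates with summits in family loci, 32 overlapped a replicate 2 candidate, 33.3%, beside 27.7% over all protein-coding loci. In the other direction 29 of 94 did, 30.9%, beside 26.9%. Agreement between the replicates at these genes was thus close to that at genes in general.

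**Figure D4:**
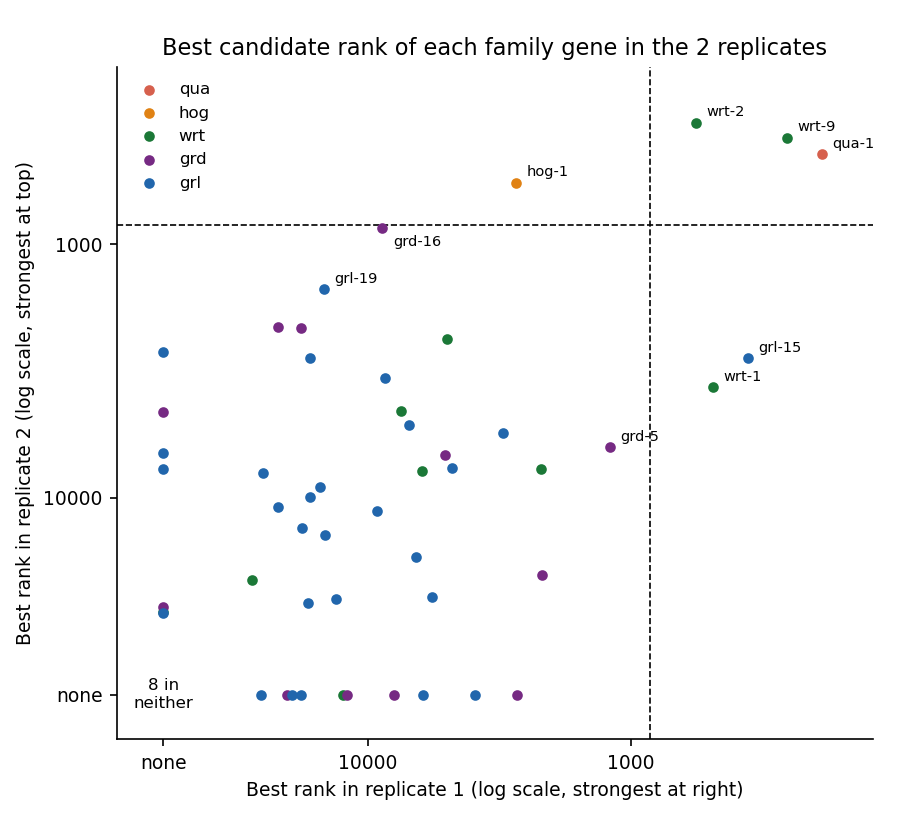
Best rank of each family gene in replicate 1 (across, log scale, strongest at right) and in replicate 2 (up, log scale, strongest at top), with genes lacking a candidate in the margins and dashed lines at rank 843. The points for qua-1, wrt-9 and wrt-2 lie past both lines, grl-15 and wrt-1 past that of replicate 1 and hog-1 past that of replicate 2, and 8 genes had a candidate in neither.

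Family genes had upstream cores about as often as other genes. Of the 59 genes, 15 had a core within 2000 bp upstream of the start, 25.4%, beside 24.5% of all genes. At least 2 cores lay upstream of 4 family genes, 6.78% beside 3.76%: wrt-2 with 3, and hog-1, grl-15 and grl-23 with 2 each. This set was chosen after its values were seen. An upstream core lay within a pooled region at wrt-2, hog-1, grl-13 and grl-7, and the region of grl-7 ranked 29480, near the bottom of the list.

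Regions with 2 or more cores were rare in the data as a whole. They made up 25% of the family's 4 IDR regions, that is wrt-2 alone, beside 2.02% of all IDR regions. Outside the IDR list hog-1 had the family's only such region, 1 of 81 or 1.23%, beside 0.22% of all other pooled regions. Within 50 bp of the summit, the core was at 1 of the 4 family IDR peaks beside 15.1% of all, and GAGAGA at 2 of the 4 beside 29.9%. Among the family's 81 other candidates, 1.23% had the core and 7.41% had GAGAGA, beside 1.85% and 7.03% of all other candidates. A share of 4 peaks moves by 25% with each peak, so none of these is read as a property of the family.

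Of the family's 4 IDR summits, 3 lay in gene bodies and 1 upstream. Over all genes, 69.8% of pairs of a locus and an IDR summit were upstream pairs. A share of 4 summits moves by 25% with each summit, so the difference is not read as a property of the family. Of the family's 85 pooled summits 50.6% lay upstream, 32.9% in introns and 8.24% in coding exons, beside 44.5%, 37.0% and 11.8% over all loci. For 70 of the 85, the family gene also had the nearest gene start.

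Beside the family, 35 genes for the release, reception and downstream steps of Hedgehog-type signalling, or related to such genes, were listed by symbol: the ptc, ptr and ptd genes, other proteins with a sterol-sensing domain (che-14, daf-6, ncr-1, ncr-2 and scp-1), the acyltransferase genes hhat-1 and hhat-2, and tra-1, the homologue of the Hedgehog effector Gli. The share of all genes with an IDR summit, 4.24%, would give 1.49 of the 35. An IDR summit lay in 4 of these loci, 11.4%. They were che-14, a relative of Dispatched that acts in apical secretion, at signal 165 and rank 63; ptr-10 at 118 and rank 123; ptr-1 at 56.0 and rank 568; and ptr-2 at 52.0 and rank 666. All of these summits lay upstream, between 30 and 793 bp from the start, and that of ptr-10 also fell in the locus of F55F8.7. The family's IDR summits lay upstream at wrt-2 and in gene bodies at qua-1, wrt-9 and grl-15. With 4 summits in each set, nothing is read from that contrast. With the strongest 422 IDR peaks the count of pathway loci fell from 4 to 2, and it is not read as a property of these genes. A pooled candidate lay in 34 of the 35 loci, 97.1% beside 65.6% of all genes, and the median best rank was 4231.5. These loci were long, with a median of 8014 bp against 3784 bp in the hedgehog-related family and 4026 bp over all genes, and the part of length in these shares was not tested. tra-1 ranked 2474 and ptc-1, a patched gene, 19179.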

How the data were processed

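The authors deposited region lists (narrowPeak) on build ce11. Per the text files deposited with the samples, candidate lists were derived from the alignments of each replicate, or of both, and a control, and the IDR list from the candidate lists. Names of an aligner and of a caller, and the cutoff of IDR, are not given in the sources used here. Region strength of a region is the authors' signal value, a score whose scale is not stated. The authors' −log10 q value was used to rank regions in 1 alternative only. The summit offset per the deposited lists was turned into 1-based positions. Lists on build ce10 were not used, and no position was converted.

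Gene bodies and starts came from Ensembl release 115 and sequence from the RefSeq genome, both WBcel235. Equal signal values share the lowest rank. Replicates were read through their own lists, and the strongest regions of each are as many as the IDR list has peaks, 843. Placement of summits was tested on simulated data, where 200 of 200 planted summits were found among 19985 genes. No test was made, since there is 1 group of 2 samples. Python 3.11.15, numpy 2.4.6, pandas 2.3.3 and matplotlib 3.10.9 were used.

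The family, the pathway list and the alternatives were chosen with earlier results of these data known. The genes named are those with an IDR summit, those at pooled rank 3000 or better, the best and worst of wrt, grd and grl, qua-1, hog-1, up to 5 with no pooled candidate, and the pathway genes with an IDR summit. Others were chosen after their values were seen. Alternatives covered the locus window, the nearest start, region overlap of at least 1 bp, the strongest 422 of the IDR peaks, ranking by q value, each replicate alone, and other core lengths and flanks.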

Additional observations from a re-analysis of the deposited data

How the results depend on the processing

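Of the 59 family genes, 4 had an IDR summit, beside 4.24% of all genes. The count was 2, beside 3.36% of all genes, when a locus ended 500 bp downstream of the start. That window leaves out the intronic summits of qua-1 and wrt-9. With 5000 bp upstream the count was 6, beside 6.27% of all genes. The window ending at 500 bp cut the genes at the top of both replicates to 1, as did taking the strongest 422 regions of each list, which left 2 pathway genes of 4 with an IDR summit. The median best pooled rank of the family was 14110 with 1000 bp upstream and 6151 with 5000 bp, where all genes had 9802 and 7366.5. It was 11332 against 10566 in the window ending at 500 bp, 11992 against 10486 by nearest start, and 12501.5 against 8784 by region overlap. Of these alternatives, only 5000 bp upstream placed the family above the median of all genes. The family median was 6800 and 8272.5 with replicate 2 and replicate 1 alone, against 9469 and 9230 over all genes. The family stood above all genes there, and the cause was not tested. With 5000 bp upstream, 2 IDR summits had the core. With a single replicate the counts ranged from 4 to 5 family genes with a summit among the 843 strongest regions, from 41 to 44 with a candidate, and from 3 to 5 pathway genes, with the core at 1 in each. The alternatives on pathway genes were chosen after seeing the data. No paired analysis was possible because both samples belong to the same group. With 2 replicates and unknown depth, no error of a rank could be given.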

Other observations

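A window of 5000 bp upstream added IDR summits at grl-8 and grl-16, named after their values were seen. The summit near grl-8, at V 6737039 with signal 50.4 and rank 714, lay 3944 bp upstream of its start, which is the nearest gene start, and had the core within 50 bp. The summit near grl-16, at signal 56.0 and rank 570, lay 4849 bp upstream and nearer to the start of F56A6.5, at 3760 bp.

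Ranks by q value differed from ranks by signal at some family genes. In replicate 1 the wrt-1 region ranked 488 by signal and 1574 by q value, and the wrt-2 region, high in both replicates by signal, ranked 567 and 1356. The grd-5 region, 813 bp downstream of its start, ranked 1199 by signal and 790 by q value in replicate 1. In replicate 2 the grl-19 region ranked 1505 by signal and 4643 by q value.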
